A study of Rattus norvegicus with 16 samples.

Results

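Ribosomal proteins and translation factors were followed in EDL (extensor digitorum longus) muscle, which lies in the hind limb and is mostly fast-twitch, from Brown-Norway rats aged 6 months. The members were all array probes whose platform gene symbol is that of a numbered ribosomal protein, an elongation factor or an initiation factor, without ribosomal protein kinases and without reference rows. This gave 24 of 1176 tested probes, namely 6 for proteins of the small ribosomal subunit, 10 for proteins of the large subunit, 1 for an elongation factor and 7 with an initiation factor symbol. Each member had a single probe. Of the 7 initiation symbols, 5 are subunits of eIF2B and the other 2, Eif2ak1 and Eif4ebp1, encode a kinase and a repressor that act on initiation factors. The 2 groups were innervated control EDL and EDL denervated for 2 months, with 8 arrays each, numbered by rat from 1 to 8. The labels do not give the method of denervation, nor whether equal numbers mark 1 animal.

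Ribosomes are built from a small subunit, which reads the messenger RNA, and a large subunit, which joins the amino acids. Initiation factors bring the first tRNA and the small subunit to the message, and elongation factors deliver the later tRNAs. eIF2B recharges the initiation factor eIF2 with GTP and is a control point of protein synthesis under stress. Messages of ribosomal proteins and of Eef1a1 are known for a run of pyrimidines (C or T) at their 5′ end, the terminal oligopyrimidine tract, through which growth signalling by mTOR controls their translation. In adult muscle of rodents the isoform Eef1a2 is known to replace Eef1a1 after birth. Skeletal muscle loses mass after denervation, and its balance of protein synthesis and breakdown changes.

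The members differed by class in the letters around their annotated start sites, which the rule did not use. In RefSeq sequences of build GRCr8, found for 21 of the 24 members, the window from 20 bases before to 20 after the start was searched for a run of at least 8 letters that are each C or T, in the direction of transcription. Such a run was present in 12 of 14 ribosomal proteins and in Eef1a1, and in 0 of 6 initiation genes. Of all 33469 RefSeq sequences searched, 15.5% held one, and among genes of this array 15.8%. On the opposite strand the run was found in 1 of the 21 members (4.76%), against 17.2% of all sequences. A match describes these letters and does not show a working tract. The stretches below run from 25 bases before to 15 after the start, and capitals mark the longest run of C and T inside the searched window. The first 5 letters of each stretch lie before that window, so a run cut by its edge, as in Eif2b3, or lying before it, as in Eif2b4, is not in capitals there. The first 6 are of genes that rose after denervation, and the last 3 are of eIF2B subunits.
Rps24: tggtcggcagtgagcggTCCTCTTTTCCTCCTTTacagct
Rps10: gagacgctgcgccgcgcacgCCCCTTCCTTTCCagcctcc
Rps15: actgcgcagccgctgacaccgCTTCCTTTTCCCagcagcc
Rpl29: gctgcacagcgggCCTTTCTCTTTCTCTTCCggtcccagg
Rpl5: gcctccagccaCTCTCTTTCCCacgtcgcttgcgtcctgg
Eef1a1: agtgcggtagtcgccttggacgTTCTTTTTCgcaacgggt
Eif2b4: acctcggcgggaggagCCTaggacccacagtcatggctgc
Eif2b3: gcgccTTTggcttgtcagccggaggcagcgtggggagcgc
Eif2b5: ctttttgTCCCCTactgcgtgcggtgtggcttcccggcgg
On the plus strand these stretches lie at chr16:96492-96531 (Rps24), chr8:115947618-115947657 (Rpl29), chr6:30903214-30903253 (Eif2b4) and chr5:135728817-135728856 (Eif2b3). On the minus strand they lie at chr20:5700730-5700769 (Rps10), chr7:10068101-10068140 (Rps15), chr14:1995211-1995250 (Rpl5), chr8:88225055-88225094 (Eef1a1) and chr11:93908786-93908825 (Eif2b5). The run of Rps24 had 17 letters, that of Rpl29 18 and that of Eef1a1 9, while the longest run inside the window had 3 in Eif2b4 and in Eif2b3. Rps6 and Rpl18 were the matched ribosomal proteins without a run of 8 inside the window, with 6 and 7 letters there. Both rose after denervation. In Rps6 a further run of C and T crosses the edge of the window. Runs of 13, 11, 14, 14 and 8 letters were present in Rps14, Rpl10a, Rpl14, Rpl4 and Rplp0, which were not called as changed. With a run in 12 of 14 ribosomal proteins, these genes cannot show whether the run goes with the call.

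Values are the authors' normalised hybridisation signals on a log scale whose base is not given, so differences are in log units and no folds are printed. On each array the lowest value was shared by 22 to 206 probes and is called the floor. A value at the floor is an upper bound on the level. Array means lay between 8.19 and 8.31 on 15 arrays and at 6.63 on the array of control rat 6, which is low throughout. The denervation response genes Runx1, Myog and Ncam1 differed in the direction of the labels, with rises of 3.54, 1.85 and 1.96. In whole muscle, more RNA of a gene per cell and more cells of a type that expresses it cannot be told apart. Probes of ribosomal proteins can also bind transcripts of their many processed copies. Whether the Eef1a1 probe also binds transcripts of Eef1a2, which has no probe among the members, was not tested.

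The comparison asked how the translation machinery differed between denervated and innervated muscle. Of the 24 members, 11 rose and 1 fell in denervated muscle in limma's test (Benjamini-Hochberg adjusted p under 0.05 over all 1176 probes). Among all probes 6.29% were called, 5.44% higher and 0.85% lower, and 17.9% had an unadjusted p under 0.05. The risen members were 5 of 6 small subunit proteins, 5 of 10 large subunit proteins and the elongation factor Eef1a1, and the fallen member was the eIF2B subunit Eif2b4. The median difference was 1.51 log units for the small subunit, 1.43 for the large subunit and -0.32 for the initiation genes, beside 0.22 over all tested probes. All 16 ribosomal proteins had positive differences, as had 63.7% of all probes. Bright probes rose more often than all probes. Among the 588 brightest, which hold 15 of the 16 ribosomal proteins, the median was 0.47 and 465 were positive. Tested alone, those 588 had 71 probes called higher, 12 of them ribosomal proteins. The difference between the classes was not tested.

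**Figure D1:**
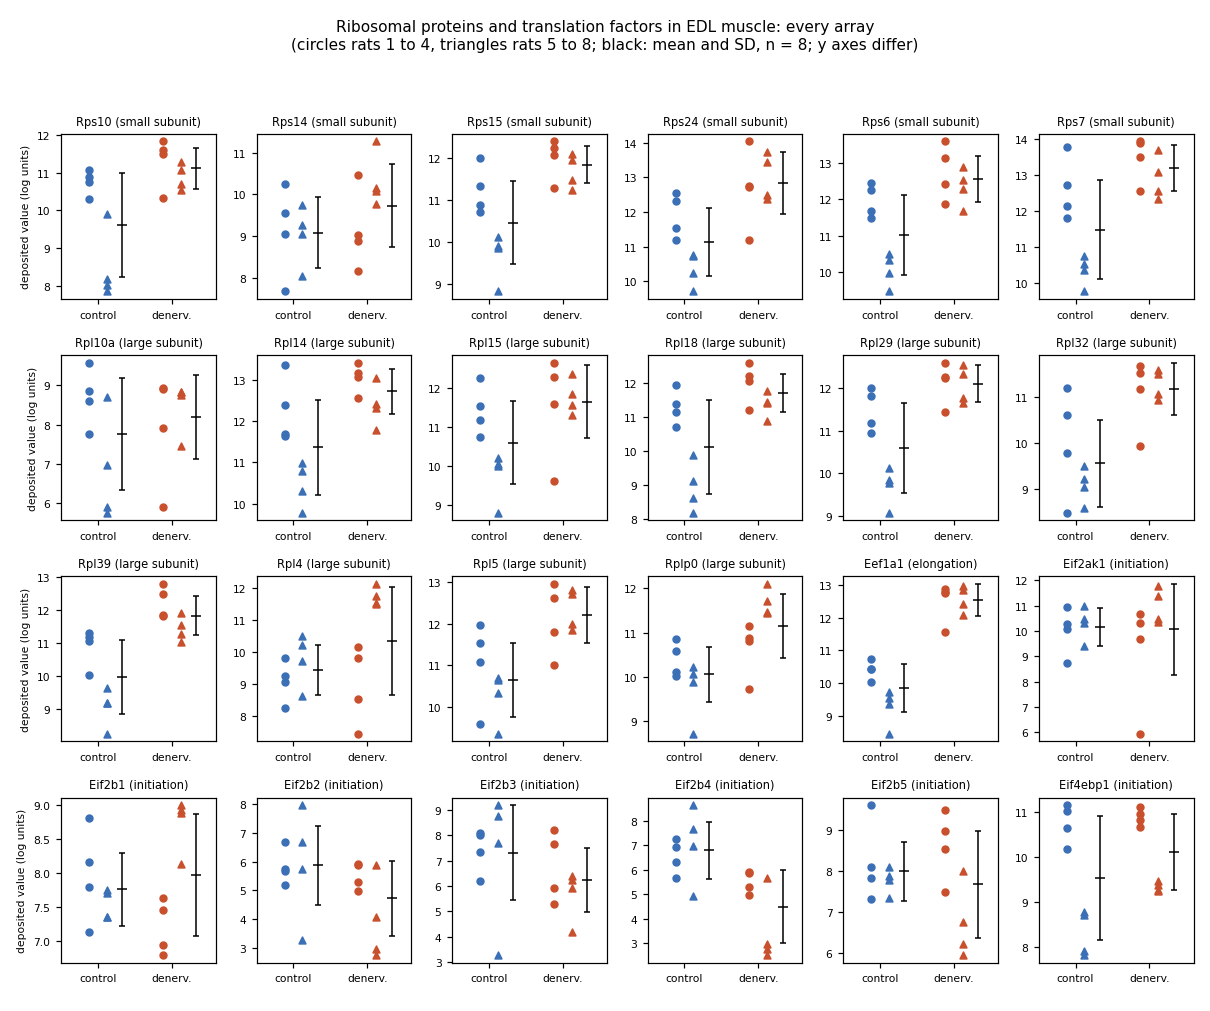
Deposited values (log units, y axes differ between panels) of the 24 members on each array, with control in blue and denervated in red, circles for rats 1 to 4 and triangles for rats 5 to 8. Black marks give the mean and SD of 8 arrays. Only Eef1a1 shows denervated values that all lie above the control values. In many ribosomal protein panels the control triangles lie below the control circles.

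Eef1a1, which brings aminoacyl-tRNA to the ribosome, showed the clearest separation. Its control values ran from 8.45 over a median of 9.88 to 10.75, and its denervated values from 11.56 over a median of 12.77 to 12.97. The lowest denervated array, rat 3, was thus above the highest control array, rat 4. It was the only member whose groups did not overlap, which held for 1.28% of all probes, and for 1.19% with denervated muscle higher. Eef1a1 rose by 2.69 log units (SE 0.39, adjusted p = 1.65e-06), from 9.84 ± 0.74 to 12.54 ± 0.50 (SD, n = 8 per group). It was called under all 32 alternatives, with differences from 1.93 after quantile normalisation to 3.31 in rats 5 to 8. Ranked among the probes of its array, its signal moved from a mean percentile of 89.9 ± 3.4 to 99.1 ± 0.4, which describes probe brightness and not abundance between genes.

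In the small subunit, Rps24, Rps7, Rps6, Rps10 and Rps15 rose. Rps24, known for its mutation in the red cell disorder Diamond-Blackfan anaemia, lay between 9.71 and 12.56 with a median of 10.98 in control muscle. In denervated muscle it lay between 11.18 and 14.04 with a median of 12.74. Of the denervated group, 5 arrays were above every control array. Rps24 rose by 1.71 (SE 0.48, adjusted p = 0.0220). Rps6, the protein that S6 kinases phosphorylate when mTOR is active, went from a range of 9.48 to 12.45 (median 10.98) to one of 11.68 to 13.58 (median 12.46). It rose by 1.52 (SE 0.46, adjusted p = 0.0318), with 4 denervated arrays above the control range.

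Rps7, Rps10 and Rps15 behaved similarly in size. Rps7 rose from 11.49 ± 1.36 to 13.20 ± 0.65 (adjusted p = 0.0352), although only 2 denervated arrays exceeded control rat 1, which stood at 13.78. Rps10 rose from 9.62 ± 1.37 to 11.11 ± 0.54 (adjusted p = 0.0233). Control rats 6 to 8 stood at 7.86 to 8.18 and control rats 1 to 5 at 9.90 to 11.06. Rps15 rose from 10.45 ± 0.99 to 11.84 ± 0.45 (adjusted p = 0.0285). Rps14, the remaining member, differed by 0.65 (SE 0.40, adjusted p = 0.395), with control values from 7.68 to 10.25 and denervated values from 8.16 to 11.27, of which 2 were above the control range.

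In the large subunit, Rpl39, Rpl32, Rpl5, Rpl18 and Rpl29 rose. Rpl39, a very small protein that lines the exit tunnel for the new peptide, had control values from 8.24 to 11.31 (median 9.82) and denervated values from 11.03 to 12.80 (median 11.83). Above all control arrays were 6 denervated arrays, and Rpl39 rose by 1.86 (SE 0.41, adjusted p = 0.00223). Rpl32 went from 8.49 to 11.21 (median 9.36) in control to 9.94 to 11.69 (median 11.35) in denervated muscle, where rat 3 stood lowest. Rpl32 rose by 1.62 (SE 0.38, adjusted p = 0.00427). Rpl5, which binds the 5S ribosomal RNA and the p53 regulator Mdm2, rose by 1.58 (SE 0.42, adjusted p = 0.0175). Its control range of 9.34 to 11.97 and denervated range of 11.01 to 12.97 overlapped over 3 denervated arrays.

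Rpl18 rose from 10.11 ± 1.38 to 11.68 ± 0.56 (adjusted p = 0.0220) and Rpl29 from 10.59 ± 1.05 to 12.10 ± 0.43 (adjusted p = 0.0220). The other 5 large subunit members did not pass. Rpl14 differed by 1.36 (adjusted p = 0.0813), Rplp0, a protein of the stalk that recruits elongation factors, by 1.10 (adjusted p = 0.0688), and Rpl15 by 1.06 (adjusted p = 0.155). Rpl4 differed by 0.93 (adjusted p = 0.280), with denervated values spread from 7.42 to 12.14, rats 3 and 4 lowest and rats 5 to 8 highest. Rpl10a differed by 0.43 (adjusted p = 0.719), and its signal lay at the floor for control rats 5 and 7 and denervated rat 4. Both subunits thus held members that passed and members that did not.

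**Figure D2:**
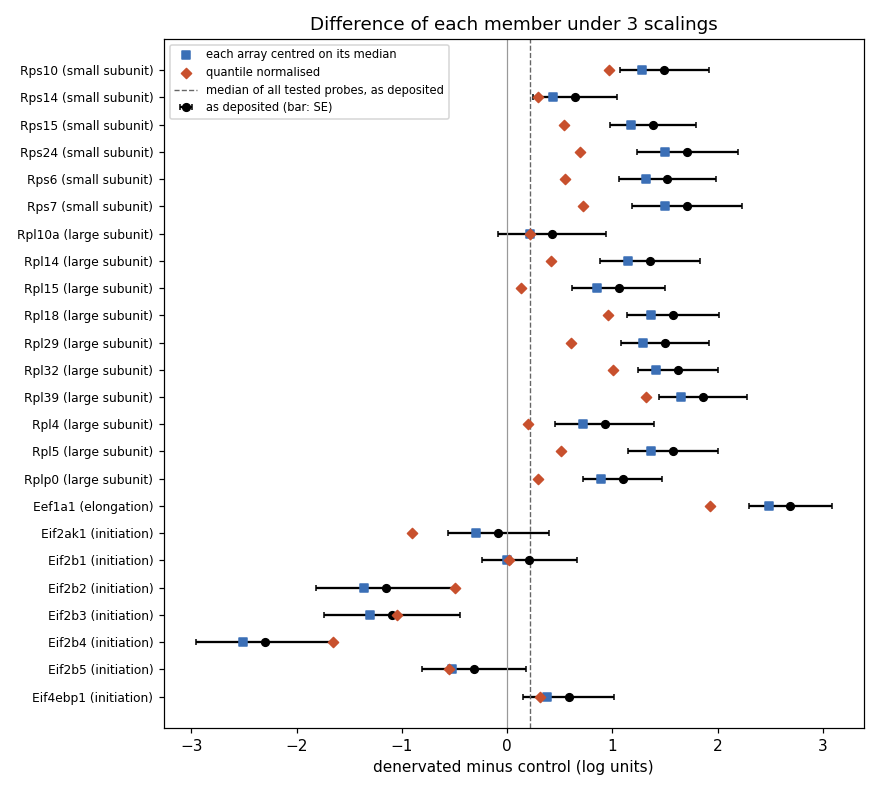
Difference of each member, denervated minus control in log units, as deposited (black, bars are the SE), with each array centred on its median (blue squares) and after quantile normalisation (red diamonds). The dashed line is the median of all tested probes as deposited, 0.22. All ribosomal proteins lie above 0 under the 3 scalings, 4 of 5 eIF2B subunits lie below 0, and quantile normalisation gives Eef1a1 its smallest value, 1.93.

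Of the 5 eIF2B subunits 1 passed, and 4 had negative differences. Among all probes 0.85% were called lower, and 63.7% had positive differences. That share is not one for dim probes. Of the 749 positive differences among 1176 probes, 465 were among the 588 brightest, which hold 0 of the eIF2B subunits. Class and brightness thus cannot be told apart here. Eif2b4, the delta subunit, had control values from 4.95 to 8.65 (median 6.96) and denervated values from 2.51 to 5.93 (median 5.14). It fell by 2.30 (SE 0.66, adjusted p = 0.0237). Its denervated signal was at the floor on 7 of 8 arrays, against 1 of 8 in control. The floors themselves differed, from 2.51 to 4.08 in denervated rats 5 to 8 and from 3.27 to 6.69 in control, so that the size of the difference depends on where the floors lie. With all arrays raised to the highest floor the difference was -0.51 (adjusted p = 0.226), and by exact permutation it did not pass either (adjusted p = 0.0568).

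Eif2b2, the beta subunit, was at the floor on 6 of 8 arrays in each group and differed by -1.15 (adjusted p = 0.357). Its level was therefore mostly bounded in both groups. Eif2b3, the gamma subunit, differed by -1.09 (adjusted p = 0.369), with control values from 3.27 to 9.19 (median 7.85) and denervated values from 4.18 to 8.20 (median 6.09). Eif2b5, the catalytic epsilon subunit, stood at 7.99 ± 0.72 in control and 7.67 ± 1.30 in denervated muscle, a difference of -0.32 (adjusted p = 0.797). Eif2b1, the alpha subunit, differed by 0.21 (adjusted p = 0.863), and its denervated values split into 6.79 to 7.62 in rats 1 to 4 and 8.13 to 8.99 in rats 5 to 8.

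The genes that act on initiation factors did not pass. Eif2ak1, the heme-regulated kinase that phosphorylates eIF2, differed by -0.08 (adjusted p = 0.955), and denervated rat 3, at its floor of 5.93, stood far below the others at 9.68 to 11.79. Without that array Eif2ak1 differed by 0.51 (adjusted p = 0.507). Eif4ebp1, the repressor that mTOR releases from eIF4E, differed by 0.58 (adjusted p = 0.494). Its values followed the rat number in both groups, at 10.18 to 11.15 and 10.67 to 11.10 in rats 1 to 4 of the control and denervated groups and at 7.82 to 8.77 and 9.25 to 9.47 in rats 5 to 8.

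Control arrays of rats 1 to 4 and of rats 5 to 8 differed in ribosomal protein signal. The mean over the 16 ribosomal proteins lay between 10.43 and 11.28 in control rats 1 to 4 and between 8.80 and 9.91 in control rats 5 to 8. In denervated muscle the same means were 10.55 to 12.14 and 11.22 to 12.00. Relative to the median of each array, the control ranges were 2.20 to 3.16 and 0.87 to 1.81. This takes out the low overall level of control rat 6 and keeps its array in the range. For 10 of the 16 ribosomal proteins every control value of rats 1 to 4 was above every one of rats 5 to 8, an order that 12.3% of all probes showed. The labels give no batch, and what divides the sets is not known. The division was known from earlier work on these data, and its part in the result was not tested.

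**Figure D3:**
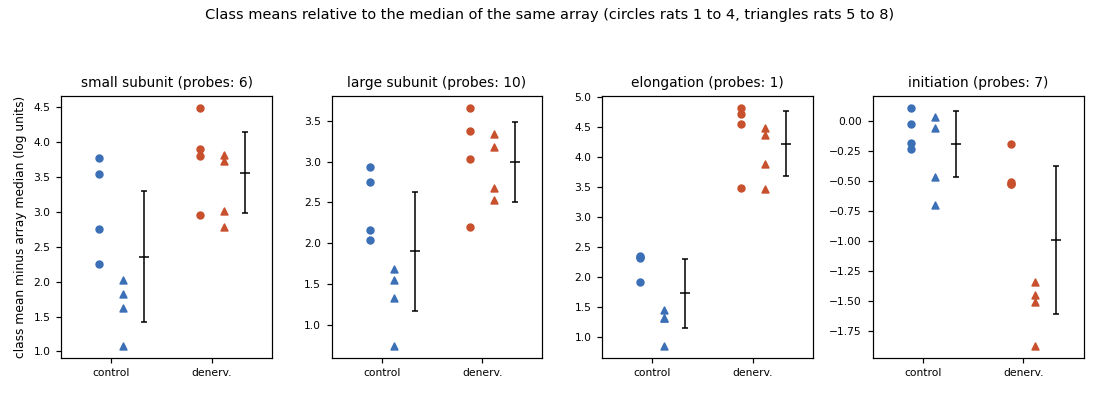
Mean of each class minus the median of the same array (log units, y axes differ), for 8 control arrays in blue and 8 denervated arrays in red, with circles for rats 1 to 4, triangles for rats 5 to 8 and black marks for mean and SD. Control rats 5 to 8 lie below control rats 1 to 4 for both subunits and for elongation. The initiation panel includes values at the floor.

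Within the sets, the differences of ribosomal proteins were mostly positive and were not of the same size. In rats 1 to 4 the median over ribosomal proteins was 0.74 (median of all probes -0.03), and 14 of 16 were positive. None of the 16 passed there in limma (3 at an unadjusted p under 0.05), while 1.53% of all probes were called higher. In rats 5 to 8 the median was 2.14 (median of all probes 0.55), and 15 of 16 passed, against 11.1% of all probes. The difference between the sets was not tested. Eef1a1 passed in both, at 2.08 (adjusted p = 0.00150) and 3.31 (adjusted p = 1.51e-09). Eif2b4 differed by -1.03 (adjusted p = 0.482) in rats 1 to 4 and by -3.58 (adjusted p = 0.0215) in rats 5 to 8, the set whose denervated floors were lowest.

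**Figure D4:**
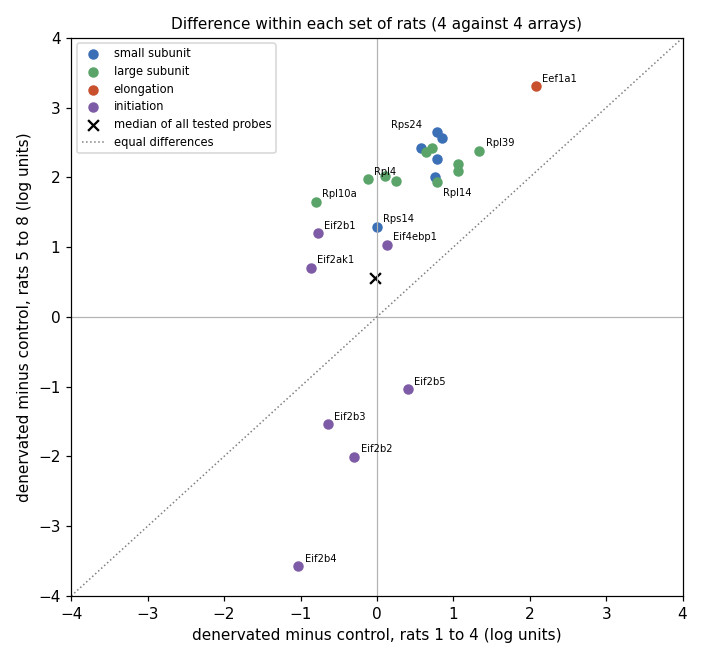
Difference of each member in rats 1 to 4 (x axis) and rats 5 to 8 (y axis), denervated minus control in log units, 4 against 4 arrays in each set. The cross is the median of all tested probes and the dotted line marks equal differences. All 16 ribosomal proteins lie above the dotted line, Rpl10a and Rpl4 are negative in rats 1 to 4, and Eef1a1 lies above 2 in both sets.

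Spread between arrays was larger in control muscle. The SD over arrays was larger in control than in denervated muscle for 13 of 16 ribosomal proteins, and for 70.7% of all probes. The median SD of a ribosomal protein was 1.06 in control and 0.64 in denervated muscle.

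The calls of Rpl32, Rpl39, Rpl5 and Eef1a1 were kept whichever single array was left out. The other 8 calls each ended without some array. The count of members called went from 12 to 4 without control rat 7 (3.83% of all probes called), to 5 without control rat 8 (4.08%) or denervated rat 1 (3.66%), and to 6 without control rat 5 (4.17%) or denervated rat 6 (3.91%). It was 8 without control rat 6, the low array (5.27%). Centring each array on its median left Rpl32, Rpl39, Rpl5, Eef1a1 and Eif2b4 called (adjusted p = 0.0566 to 0.107 for the other 7). Quantile normalisation left Rps7, Rpl32, Rpl39, Eef1a1 and Eif2b4 (adjusted p = 0.0509 to 0.307 for the other 7) and lowered the class medians to 0.62 for the small and 0.47 for the large subunit. Among all probes 4.25% were called after centring and 5.27% after quantile normalisation. With a common floor 7 members were called, against 4.68% of all probes, and by exact permutation 5, against 5.7%.

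Of 10 other measured genes of translation and growth signalling, none passed in limma (4 at an unadjusted p under 0.05, 0 by exact permutation after adjustment). Of these 10 differences 9 were positive, with a median of 0.72. Among all probes 63.7% were positive, with a median of 0.22, and 17.9% had an unadjusted p under 0.05 in limma. Of the 10 genes, 8 were among the 588 brightest probes, whose median was 0.47. Rack1, a scaffold protein on the small subunit, differed by 0.99 (adjusted p = 0.0975) and Ncl, the nucleolar protein nucleolin, by 0.97 (adjusted p = 0.117). Tpt1, the translationally controlled tumour protein, differed by 1.28 (adjusted p = 0.183), and Rpn1, a subunit of the oligosaccharyltransferase beside ribosomes at the endoplasmic reticulum, by 0.75 (adjusted p = 0.223). The subunits Polr1a and Polr1b of RNA polymerase I, which makes ribosomal RNA, differed by 0.67 (adjusted p = 0.494) and 0.68 (adjusted p = 0.371).

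In the mTOR pathway, the kinases Pdpk1 and Rps6kb1 differed by 0.83 (adjusted p = 0.310) and 0.67 (adjusted p = 0.450). Rheb, the activator of mTOR, differed by -0.03 (adjusted p = 0.981), and Tsc2, which inhibits Rheb, by 0.23 (adjusted p = 0.828). In rats 5 to 8 alone 4 of the 10 passed, where 11.1% of all probes were called higher and the median of all probes was 0.55. They were Ncl at 1.50, Rack1 at 1.33, Rpn1 at 1.20 and Tpt1 at 2.23.

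Some markers of other cell types also differed between the groups, where 5.44% of all probes were called higher and 0.85% lower. Of 4 measured fibroblast and matrix markers 3 rose, S100a4 by 2.88 (adjusted p = 5.06e-07), Bgn by 2.30 (adjusted p = 3.24e-05) and Dcn by 1.40 (adjusted p = 0.0318). Their mean per array lay between 8.04 and 10.76 in control and between 11.18 and 12.33 in denervated muscle. Both measured genes of the satellite cell and myoblast list, Myog and Myod1 (adjusted p = 0.045), rose. Their mean lay between 7.79 and 10.35 in control and 9.49 and 11.38 in denervated muscle. Myog is the same probe as the response gene above, so its rise is not separate from that response and does not show more such cells. Of 5 fast muscle markers 1 fell, Mylk2 by 1.87, with a mean of 8.82 to 11.95 and 9.51 to 10.71. The others did not pass, with Ckm at 0.70, Pgam2 at 0.15, Cacna1s at -0.03 and Tpm1 at -0.59. Of 4 Schwann cell and nerve markers 1 rose, Nefm by 1.38 (adjusted p = 0.0318), with a mean of 5.82 to 8.24 and 7.28 to 8.97. The adipocyte marker Scd rose by 2.97, and Myh11, the only measured marker of endothelium and smooth muscle, differed by 0.45. Of 3 macrophage and leukocyte markers none passed, with a mean of 7.36 to 9.83 in control and 9.22 to 9.92 in denervated muscle. No blood marker was measured, and no measured marker was at the floor on all arrays of a group. The part of other cell types in the result was not tested.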

How the data were processed

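Signals came from cDNA on Clontech rat membranes. Per the labels, the authors read spots with Array Vision software from phosphorimager scans and scaled arrays by linear regression. What they deposited is a score in log units of unstated base. How background was handled and why values stop at a floor is not stated. The 9 reference rows lie on another scale and were left out, which left 1176 probes (1106 with 1 gene, 2 with several and 68 with none). Values were used as deposited. The main test was limma's two-sided moderated test (version 3.58.1, R version 4.3.3) with eBayes set to follow the mean-variance trend, and an adjusted p under 0.05 over all tested probes counted as a change; adjusted p-values are limma's unless exact permutation (12870 arrangements) is named. No filter on low values was used. The procedure was tested on simulated data with independent probes and an equal SD in both groups. That simulation held no floors, no shift of a whole array and no division between sets of rats, so it does not cover them.

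The members and lists were chosen with earlier results of these data known. Named were all members, the measured genes of the list of other translation and growth genes, Runx1, Myog and Ncam1 as response genes, and cell type markers. Alternatives were scaling, filters, floors, blocks, variance, an exact test and leaving out each array; array centring without control rat 6 was added after seeing the data. The same-numbered arrays had correlations of deviations from 0.06 to 0.19, which did not meet the limit set for pairing. Nothing says beyond the rat numbers that arrays came from separate animals. The number of arrays limits the precision. Promoter sequences are from RefSeq, build GRCr8. Figures were drawn with matplotlib 3.10.9.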

Additional observations from a re-analysis of the deposited data

Results flagged for a closer look

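Of 74 groups of 8 arrays tested (each member, other translation gene and response gene in each group), 6 had 1 array apart from the rest by more than Dixon's critical gap; chance flags about 1 in 20 groups. Denervated rat 3 stood apart for 3 genes, at 9.62 for Rpl15 (others 11.33 to 12.67), 9.94 for Rpl32 (others 10.94 to 11.69) and 5.93 for Eif2ak1 (others 9.68 to 11.79). Control rat 6, the low array, stood at 8.72 for Rplp0 (others 9.89 to 10.86). Control rat 4 stood at 9.60 for Eif2b5 (others 7.32 to 8.09). Denervated rat 1 stood at 7.31 for Rheb (others 8.45 to 9.30).

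Rps29, a small subunit protein, was carried on 1 of the 9 reference rows, which lie on another scale and were left out of the main test. Its values, on the scale of those rows, averaged 10.24 ± 4.51 in control and 18.53 ± 3.50 in denervated muscle (SD, n = 8 per group). The exact two-sided permutation p was 0.00202, unadjusted. Values of the other reference rows are not given here, so a rise of Rps29 was not told apart from a shift of that scale. Control values ran from 5.89 to 18.66 and denervated values from 14.37 to 25.35, so the groups overlapped.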

How the results depend on the processing

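Over 32 alternatives, 751 of 761 recomputed member differences kept their direction. Filters, blocks, variance settings, added reference rows and the exact test cannot change a difference, so much of this count was fixed in advance. Probes called among all (74) were 113 with rat number as a replicate block, 131 with the set of rats as a block, 141 with centring and the replicate block, 30 in rats 1 to 4, 139 in rats 5 to 8, 42 without the variance trend, 43 with centring and no control rat 6, and 43 to 98 without 1 array. Members called (12) were 15 with the replicate block, 5 after centring, quantile normalisation or by exact permutation, 7 with a common floor or without the trend, 1 in rats 1 to 4, 4 with centring and no control rat 6, and 4 to 15 without 1 array. The replicate block added Rpl14, Rpl15 and Rplp0 and ended no call among members; 2 of 8 control arrays correlated best with their own number. Other translation genes called (0) were 1 with the replicate block or array weights, 3 with the set of rats as a block or with centring and the replicate block, 4 in rats 5 to 8, and 0 to 1 without 1 array. Class medians moved after quantile normalisation to 0.62 (small subunit), 0.47 (large subunit) and 1.93 (elongation). They were 2.34 for the small subunit and -1.04 for initiation in rats 5 to 8, and 0.68 for the large subunit in rats 1 to 4. The initiation median was 0.25 among the 588 brightest probes, which holds only Eif2ak1 and Eif4ebp1. The sign turned in rats 1 to 4 for Rpl10a (-0.80), Rpl4 (-0.11), Eif2b1 (-0.77), Eif2b5 (0.41), Rps6kb1 (-0.21) and Tsc2 (-0.48), in rats 5 to 8 for Eif2ak1 (0.70) and Rheb (0.77), after quantile normalisation for Tsc2 (-0.0299), and for Eif2ak1 with a common floor (0.012) and array weights (0.17). Without 1 array Eif2ak1 ranged from -0.33 to 0.51 and Rheb from -0.40 to 0.16. The cause of these shifts was not tested. Signals at the floor limit what can be said of Eif2b2 and Eif2b4.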

Other observations

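Rpsa, a small subunit protein whose symbol lies outside the rule, was carried on 2 probes and was named after its values were seen. One differed by 0.45 with an adjusted p of 0.548 in limma. The second differed by 0.82 with an adjusted p of 0.300. In rats 1 to 4 they differed by -0.50 and -0.36, and in rats 5 to 8 by 1.40 and 2.00.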
